A study of Mus musculus with 20 samples.

Results

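The m6A peaks described here lie wholly within the 3′ untranslated region (3′ UTR) of messenger RNAs in mouse heart. They were taken from 10 peak lists, 1 per heart, as every peak annotated to the 3′ UTR alone, and a peak that also reached the coding sequence was left out. After lines repeated at the same position in a list were dropped, 51685 of the 141836 distinct peaks remained (36.4%), on transcripts of 6192 genes. The hearts came from 5 db/db mice, homozygous for the diabetes allele of the leptin receptor gene, and 5 heterozygous db/+ mice, all on the C57BL/6 background and with no treatment given in the labels. The genotype field of the labels calls the db/+ mice wild type, so both groups are given by the sample titles, and every control carries 1 copy of the allele. Each heart gave an input RNA library and a library enriched with an antibody to m6A, 20 libraries in all. The labels list the hearts as separate animals and give no age.

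N6-methyladenosine, or m6A, is the most common internal mark of messenger RNA. It is placed by a nuclear complex built around Mettl3 and Mettl14 on adenosines within a short consensus whose core is GGAC, is removed by Fto and Alkbh5, and is bound by readers of the YTH family, some of which speed the decay of the transcript. The marks gather around the stop codon and along the 3′ UTR, the part of the transcript that also carries microRNA and protein binding sites. In db/db mice the loss of leptin signalling brings obesity and diabetes, and the heart is known to turn further to fatty acids as fuel.

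Short stretches of the peaks are shown first, because the GGAC core is the sequence the mark is placed on. The only sequence at hand was RefSeq's windows around gene starts (GRCm38.p6), so only peaks that reach such a window of another gene could be read, 16 stretches of 50 to 220 bases with a median of 97. GGAC on the strand of the transcript stood in 5 of the 16 (31.3%), the longer GGACT, which contains GGAC, in 2 (12.5%), and AGACT in 1 (6.25%). Over all 32851 windows cut to 97 bases, 29.1% held GGAC, 8.86% GGACT and 9.58% AGACT, and with 16 stretches no comparison was made. In the sites below the motif is in capitals with 10 bases on each side, read 5′ to 3′ on the transcript strand. The first 2 lie in stretches reached by peaks of 7 hearts, and the last in a stretch of 1 heart. A stretch ran from the first to the last base covered in any heart. Whether a site lay in the peak of each heart was not examined.
Acads at chr5:115110393-115110416 (minus strand): ggttgctgtgGGACggctgggggc
Atraid at chr5:31054554-31054578 (plus strand): gttcaggagtGGACTcgtactaatt
Sec24c at chr14:20694763-20694786 (plus strand): cccctgctatGGACctttcatttc
Slc25a44 at chr3:88410568-88410592 (minus strand): agctagaaatGGACTcgaggagatt
Acads encodes the short-chain acyl-CoA dehydrogenase of fatty acid oxidation, and its stretch, reached by peaks of 3 db/db and 4 db/+ hearts, held GGAC at 3 places. Sec24c encodes a coat protein of vesicles leaving the endoplasmic reticulum, and Slc25a44 a mitochondrial carrier of branched-chain amino acids. None of the 1005 mouse microRNA hairpins of RefSeq was overlapped by a peak of the class.

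The 3′ UTR-only peaks were short and sat near the ends of genes. Their median length was 151 bases, with quartiles of 119 and 240, a shortest of 57 and a longest of 2119, and 99.6% lay in 1 exon block. From the centre of a peak to the 3′ end of its gene the median distance was 758 bases, with quartiles of 135.5 and 2069, and 42.3% of peaks lay within 500 bases of that end. The fold enrichment given by the authors' peak caller had a median of 3.54 and ran from 1.05 to 112. Longer peaks had higher folds, with medians of 3.18 for peaks of up to 100 bases, 3.28 for 100 to 200, 3.88 for 200 to 400 and 4.45 above that.

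Within each heart, 3′ UTR-only peaks were shorter than coding-only peaks and than peaks that span the stop codon. The within-heart difference of medians was −36.4 bases against coding-only peaks, with a range over hearts of −58 to −3, and it was negative in 10 of 10 hearts (exact two-sided sign permutation over 10 hearts, p = 0.00195, adjusted p = 0.00977 over 10 heart-level tests). Against stop-codon-spanning peaks it was −157.6 bases, from −179 to −121, again in 10 of 10 hearts (exact sign permutation, p = 0.00195, adjusted p = 0.00977). A peak that extended past the 3′ UTR was by definition not in the class. The difference from stop-codon-spanning peaks is therefore partly set by how the classes were drawn.

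Each gene usually had few separate peaks. As listed, a heart held 1.82 to 2.12 peaks per gene with at least 1, but the caller worked transcript by transcript, and neighbouring peaks of 1 heart often overlap. Merged where they overlap, the 51685 peaks became 32761 (36.6% fewer) and the mean fell to between 1.17 and 1.35 per gene, with 75.1% to 86.1% of the genes of a heart holding 1 merged peak.

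The numbers per heart did not separate the genotypes, and 2 hearts stood apart. In db/+ hearts 1 to 5 there were 4674, 4387, 5308, 5055 and 9443 3′ UTR-only peaks, and in db/db hearts 1 to 5 there were 5169, 4946, 4495, 5573 and 2635. The fifth db/+ heart was the highest of all and the fifth db/db heart the lowest, and the other 8 hearts of both genotypes overlapped. The mean was 4563.6 ± 1146 in db/db and 5773.4 ± 2081 in db/+ (SD, n = 5 each, exact two-sided permutation test, p = 0.397, adjusted p = 0.506). Without db/+ 5 and db/db 5 the difference turned from −1209.8 to 189.75 peaks (exact permutation test, p = 0.6).

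**Figure D1:**
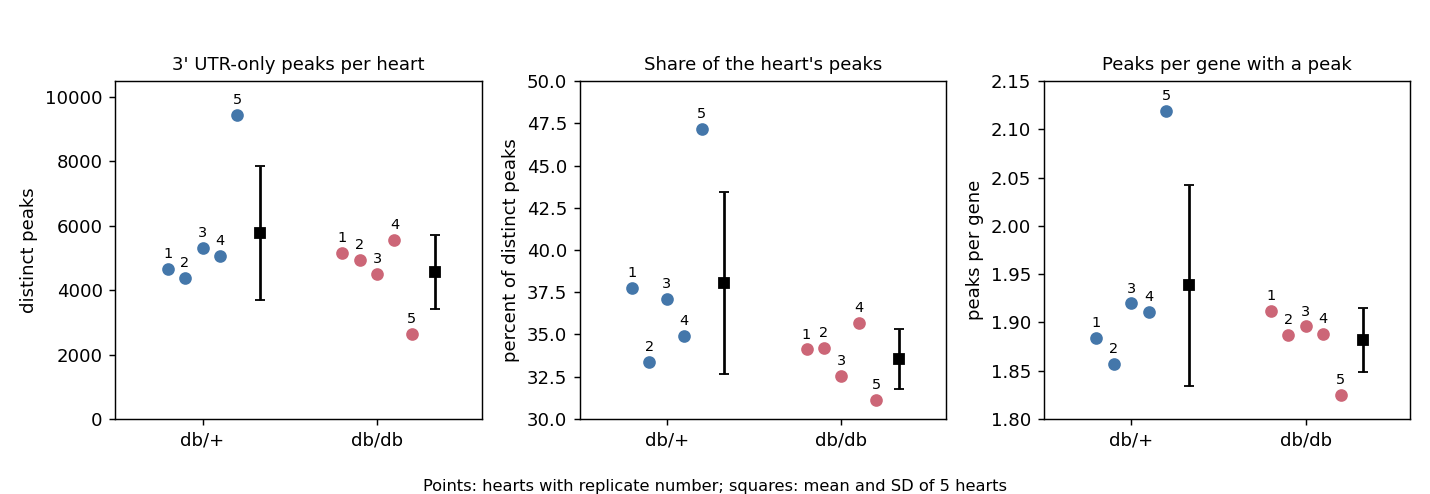
Distinct 3′ UTR-only peaks per heart, their percent of all distinct peaks of the heart, and peaks per gene with at least 1 peak, for 5 db/+ and 5 db/db hearts. Points are hearts with their replicate number and squares with bars are the mean and SD; the db/+ 5 heart is highest in all 3 panels and db/db 5 lowest.

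As a share of the heart's own peaks the class made up 37.7%, 33.4%, 37.1%, 34.9% and 47.2% in db/+ hearts 1 to 5 and 34.1%, 34.2%, 32.5%, 35.7% and 31.1% in db/db hearts. The ranges overlapped between 33.4% and 35.7%. The mean was 33.5% ± 1.75 in db/db against 38.1% ± 5.38 in db/+ (exact permutation test, n = 5 each, p = 0.0635, adjusted p = 0.159), which did not pass. Merging overlapping peaks brought the difference to −4.92 percentage points (exact permutation test, p = 0.0317), and leaving out db/+ 5 and db/db 5 brought it to −1.64 (exact permutation test, p = 0.229).

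Genes with a peak numbered 2362 to 4456 in db/+ and 1444 to 2951 in db/db hearts (exact permutation test, n = 5 each, p = 0.405, adjusted p = 0.506). Peaks per gene were 1.88 ± 0.0334 in db/db and 1.94 ± 0.104 in db/+ (p = 0.333 by the exact permutation test). Median lengths of 150 to 179 bases per heart differed by −0.4 bases between the genotypes (exact permutation test, p = 0.841). Median distances to the gene end of 679 to 851 bases differed by 34.7 bases (exact permutation test, p = 0.349).

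In their own lists the 3′ UTR-only peaks ranked near the middle by fold. Their median percentile was 45.2 to 50.5 in 9 hearts and 58.9 in the fifth db/+ heart, where all other peaks had a median of 42.5. Over the 10 hearts the difference from the other peaks was −0.84 percentile points (exact sign permutation, p = 0.762, adjusted p = 0.841). Without db/+ 5 and db/db 5 it was −3.20 (exact sign permutation, p = 0.0156), so over the other 8 hearts the class ranked slightly below the rest on average. The fifth db/+ heart also had the highest median fold of the class, 4.18, and the fifth db/db heart the lowest, 2.76.

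To follow positions across hearts, overlapping peaks of all classes were joined into regions, 15747 in all, and 7388 of them on 5209 genes held 3′ UTR-only peaks and no other. These regions took in 77.3% of the 51685 peaks, and the rest lay in regions shared with peaks of another class. Of the 7388, 3410 (46.2%) had a peak in 1 heart and 589 (7.97%) in all 10. Regions of the coding sequence were found in all 10 hearts in 9.99% of cases and stop-codon-spanning regions in 32.3%. A further 1554 regions held 3′ UTR-only peaks together with peaks of another class. Of these, 605 (38.9%) were found in all 10 hearts and 4.05% in 1 heart, so the 7.97% leaves out many well-shared positions of the class. The fifth db/+ heart alone supplied 1784 of the 3410 regions of 1 heart (52.3%), while each of the other 9 supplied 27 to 316. Of the 332 regions found in 9 hearts, 171 (51.5%) lacked only the fifth db/db heart.

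**Figure D2:**
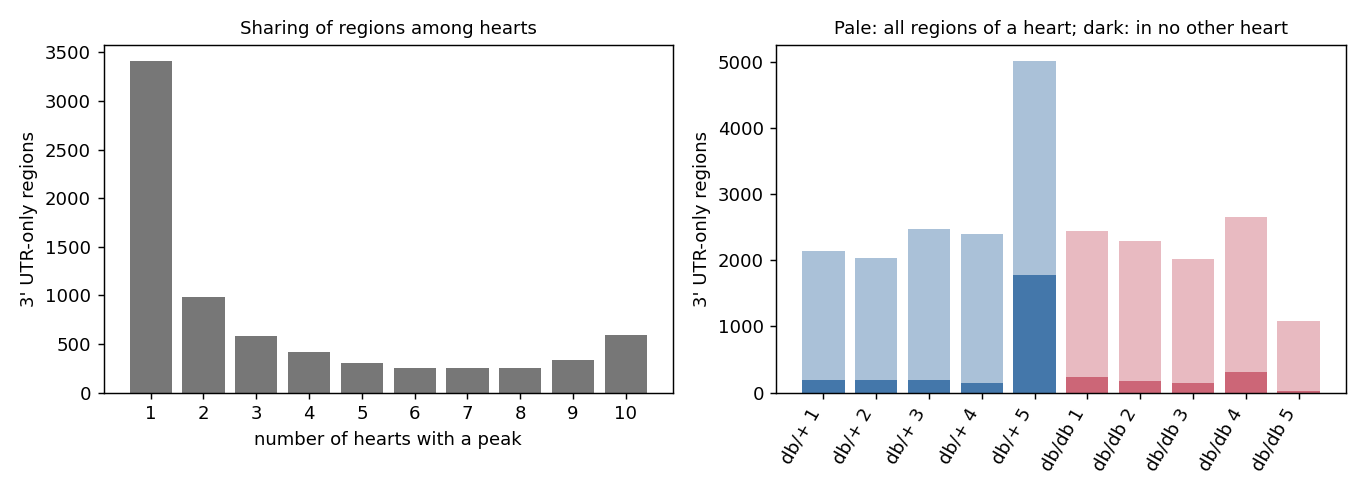
Left, number of 3′ UTR-only regions by the number of hearts with a peak in them, from 3410 in 1 heart to 589 in 10. Right, all 3′ UTR-only regions of each heart (pale) and those found in no other heart (dark), which reach 1784 in db/+ 5 and 27 in db/db 5.

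Regions seen in few hearts did not have the lower folds. The median of the mean fold was 5.18 in regions of 1 heart, 4.75 in regions of 2 hearts and 3.72 in regions of all 10. The fifth db/+ heart, with the highest median fold of the class, supplied 52.3% of the regions of 1 heart. Its part in the 5.18 was not examined. Sharing went with expression of the gene. With the tested genes cut into 5 equal groups by FPKM, 32.4% of the lowest group had a 3′ UTR-only region and 0.483% had one in all 10 hearts. In the highest group these shares were 55.9% and 15.7%. Among the regions of all 10 hearts the median fold was 4.86 on genes of 1 to 10 FPKM and 2.54 on genes above 100 FPKM, so the widely shared regions of highly expressed genes were those of low fold.

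Positions were slightly more similar within genotypes than between them, but over all hearts the difference did not pass. The Jaccard index, the bases covered in both hearts over the bases covered in either, averaged 0.383 over the 20 pairs within a genotype and 0.373 over the 25 pairs between genotypes (exact one-sided permutation test, p = 0.0635, adjusted p = 0.159). It was highest between db/+ 3 and db/+ 4 at 0.486 and lowest between db/+ 5 and db/db 5 at 0.187. These last hearts covered 1231 kb and 311.8 kb, which bounds the index, and the other 8 covered 530.9 to 705.3 kb. Without both of them the difference rose from 0.0101 to 0.0142 (exact one-sided permutation test, p = 0.0286). That is the smallest p the test can give without those hearts. No other split of the remaining hearts gave a larger difference. With the 8000 peaks of smallest p of each list, the difference over all hearts was 0.0168 (exact one-sided permutation test, p = 0.0238). Neither p was adjusted. Leaving out 1 heart at a time gave 0.00328 to 0.0136 (exact one-sided permutation tests, p = 0.119 to 0.286), lowest without db/+ 5.

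**Figure D3:**
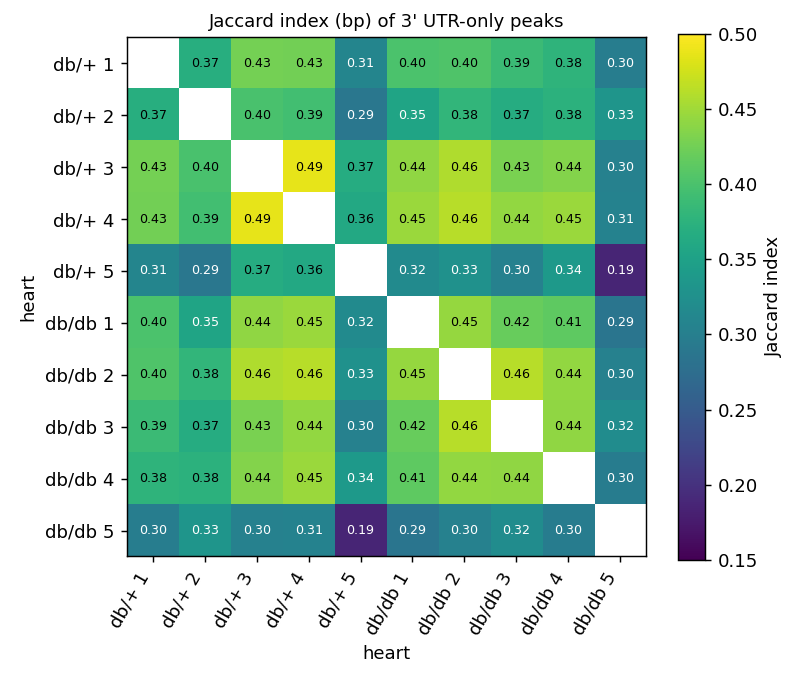
Jaccard index in bp of the 3′ UTR-only peaks for every pair of the 10 hearts, on a colour scale from 0.15 to 0.5. Rows and columns of db/+ 5 and db/db 5 are the darkest, which marks the lowest overlap, with means of 0.311 and 0.293, and the blocks within a genotype do not stand out by eye.

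Few regions followed the genotype. A peak in at least 4 db/db hearts and at most 1 db/+ heart was found at 33 of the 7388 regions (0.447%, against 0.578% of regions of all classes). The opposite pattern was found at 118 (1.6%, against 1.11% of all regions). Of the 118, 114 had a peak in the fifth db/+ heart and 115 lacked one in the fifth db/db heart. Without those 2 hearts the same rule asks for all 4 remaining hearts of 1 genotype and at most 1 of the other. The counts were then 63 regions with more db/db hearts (1.07%, against 0.953% of all regions) and 32 with fewer (0.546%, against 0.367%). The excess of regions with fewer db/db hearts thus turned round. No region passed Fisher's exact test after Benjamini-Hochberg adjustment over all 15747 regions (0 of all regions, lowest adjusted p = 1), and 70 regions had an unadjusted exact p under 0.05 (0.947%, against 0.673% of all regions), 5 against 0 hearts being the most extreme pattern possible at p = 0.00794. With that smallest p, no region could pass unless a large part of all 15747 regions reached it. Among all classes 3 regions did so in db/db and 6 in db/+. The adjusted test therefore could not decide whether a single region followed the genotype.

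At 1 region all 5 db/db hearts and no db/+ heart had a peak (0.0191% of all regions showed this), in Agpat3, which encodes an acyltransferase that makes phosphatidic acid. The region lies at chr10:78269567-78269925 on the minus strand (gene ENSMUSG00000001211.15), 567.5 bases before the end of the gene. Its folds were 2.61, 2.69, 2.60, 3.15 and 3.26 in db/db hearts 1 to 5, at the 23.5th to 66.4th percentile of their own lists. The FPKM of Agpat3 was 19.4 to 26.3 in db/db hearts and 16.2 to 22.1 in db/+ hearts, so the genotypes overlapped, with a log2 difference of 0.27 ± 0.09 (SE, limma adjusted p = 0.152).

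At 5 regions all 5 db/+ hearts and no db/db heart had a peak (0.0381% of all regions). They lie in the 3′ UTRs of Podxl, Abcc9, Gfm2, Mbnl2 and Ackr3. Podxl encodes podocalyxin, a sialomucin of podocytes and endothelium, and its region at chr6:31519488-31519936 on the minus strand had folds of 3.19, 6.53, 2.22, 11.7 and 16.4 in db/+ hearts 1 to 5, lowest in the third and highest in the fifth. FPKM of Podxl was 27.9 ± 3.61 in db/+ and 25.9 ± 2.84 in db/db (SD, n = 5 each, limma adjusted p = 0.63), a difference within the spread of the hearts. Abcc9 encodes the sulfonylurea receptor subunit of the ATP-sensitive potassium channel of heart muscle. Its region at chr6:142589539-142589961 on the minus strand had folds of 2.55 to 5.56, and a neighbouring region of the same 3′ UTR at chr6:142590018-142590289 was found in 5 db/+ and 2 db/db hearts. The FPKM of Abcc9 was 28.0, 21.4, 24.1, 28.5 and 20.7 in db/+ and 16.6, 19.3, 18.2, 18.7 and 17.8 in db/db hearts, with no overlap. Its log2 difference was −0.41 ± 0.09 (limma adjusted p = 0.0436), a call lost in 11 of 16 alternative fits, including equal library medians (adjusted p = 0.0816).

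The remaining 3 genes had FPKM values that overlapped between genotypes. Gfm2, a mitochondrial translation factor, had its region at chr13:97176292-97176451 on the plus strand with folds of 2.21 to 4.48. Mbnl2, a muscleblind regulator of splicing that itself binds 3′ UTRs, had its region at the very end of the gene, chr14:120431547-120431697 on the plus strand, with folds of 1.65 to 5.94. Ackr3, a scavenging receptor for a chemokine, had its region at chr1:90215085-90215710 on the plus strand, with folds of 1.62 to 3.27. Several of these folds were low for their lists, at a mean percentile of 35.96 for Gfm2, 26.5 for Mbnl2 and 20.02 for Ackr3. In Ackr3 the peak of db/+ 2 overlapped none of those of db/+ 1, 3 and 4. Only the long peak of db/+ 5 joined them into 1 region, so the db/+ hearts did not all share a position there.

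Among regions seen in 4 db/db hearts and no db/+ heart, the rule of naming took Apopt1, Chrna2, H2-T23, Tfrc, Rgl2, Ahsg and F2r. The 3′ UTR of F2r also held a neighbouring region at chr13:95602935-95603322, found in 4 db/db and 3 db/+ hearts. In the named region of F2r the peak of db/db 2 overlapped neither that of db/db 1 nor that of db/db 4. Tfrc encodes the transferrin receptor, whose 3′ UTR is known for its iron-responsive elements, and its region at chr16:32632644-32632794 on the plus strand lay at the end of the gene with folds of 3.34, 4.54, 2.00 and 2.43 in db/db hearts 1 to 4. FPKM of Tfrc was 15.6, 17.4, 32.5, 16.4 and 14.3 in db/db and 4.40, 6.01, 2.87, 4.74 and 7.10 in db/+ hearts, so every db/db heart was above every db/+ heart. The log2 difference was 1.73 ± 0.23 (limma adjusted p = 0.00355). Chrna2, a nicotinic acetylcholine receptor subunit, had its region at chr14:66151336-66151754 on the plus strand with folds of 6.36, 2.68, 7.54 and 10.2 in db/db hearts 1 to 4. There the peaks of db/db 2 and db/db 3 did not overlap each other. The FPKM of Chrna2 was 1.96 to 3.49 in db/db and 0.391 to 0.885 in db/+ hearts, without overlap (log2 difference 1.31 ± 0.12, limma adjusted p = 0.00039). Chrna2 passed the minimum of a mean of 1 FPKM only through the db/db hearts, and with no minimum its limma adjusted p was 0.000425. At the levels of the db/+ hearts a transcript gives few reads, and a region without a listed peak there cannot be told apart from a region too thinly covered to be called.

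Ahsg, which encodes the liver glycoprotein fetuin-A, had FPKM of 12.7 to 29.0 in db/db and 8.72 to 15.8 in db/+ hearts, which overlapped (log2 difference 0.97 ± 0.20, limma adjusted p = 0.0292, a call lost in 9 of 16 alternative fits). Rgl2, an exchange factor for Ral GTPases, fell from 6.24 ± 0.765 to 4.68 ± 0.241 FPKM (limma adjusted p = 0.0388, lost in 10 of 16). Apopt1, an assembly factor of cytochrome c oxidase, H2-T23, a non-classical histocompatibility protein, and the thrombin receptor gene F2r did not pass the expression test (limma adjusted p = 0.878, 0.192 and 0.107). F2r gained a call in 2 of 16 alternative fits (lowest limma adjusted p = 0.011). Among regions of 4 db/+ hearts and no db/db heart, those of Clec4a3, Gpn3 and Thrb had the highest folds, with means of 18.0, 13.3 and 13.2. Thrb encodes the beta receptor for thyroid hormone, and its FPKM was 2.16 ± 0.483 in db/+ and 1.56 ± 0.549 in db/db hearts (SD, n = 5 each, limma adjusted p = 0.282). The Thrb region was joined through the peaks of db/+ 5, and the peaks of db/+ 4 overlapped none of those of db/+ 1 and 2.

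**Figure D4:**
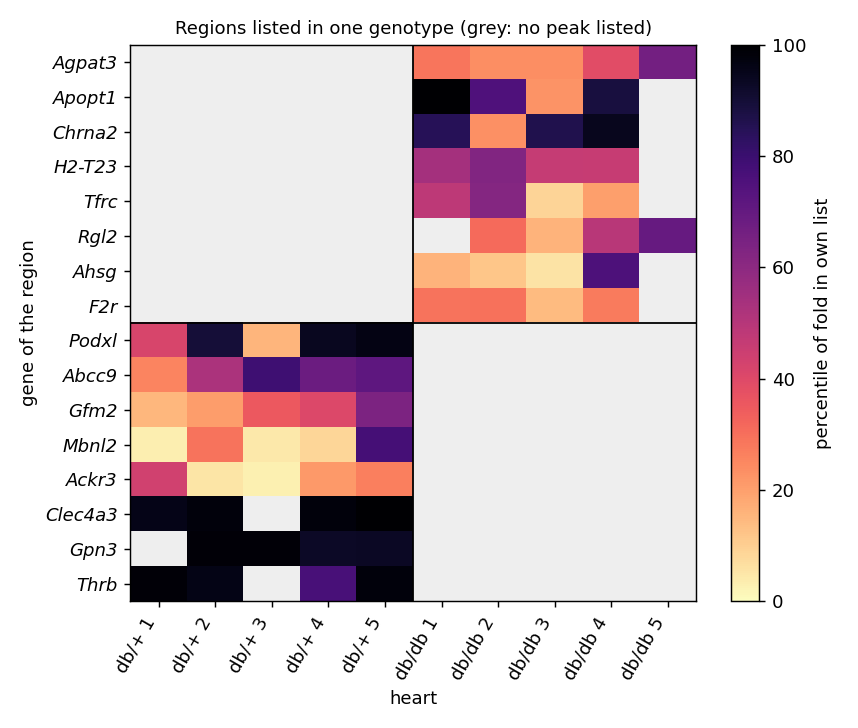
The 16 regions named for following the genotype, by gene and heart, coloured by the percentile of the peak's fold in its own list from 0 to 100. Grey means that no peak was listed; the upper 8 have peaks in 4 or 5 db/db hearts and the lower 8 in 4 or 5 db/+ hearts.

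Expression of the genes behind all these regions was read beside them. Of 33 tested genes with a region in more db/db hearts, 4 rose (Tfrc, Chrna2, Ahsg and Spock2, 12.1% against 1.29% of all tested genes, with Chrna2 tested only through its db/db level) and 1 fell (Rgl2, 3.03% against 1.72%), and the median log2 difference was 0.12. Of 115 tested genes with a region in fewer db/db hearts, 2 rose (Creg1 and Plpp1, 1.74%) and 4 fell (Abcc9, Ppm1k, Rnf114 and Trib1, 3.48%), with a median of −0.03, the same to this precision as the median of −0.03 over all 10344 tested genes. These counts are small, and whether a change in the input sets whether a peak is called was not tested. Ppm1k, the phosphatase that activates branched-chain keto acid breakdown, had 13.4 to 15.7 FPKM in db/db and 16.0 to 25.2 in db/+ hearts. Trib1, a pseudokinase that regulates hepatic lipid synthesis, had 1.69 to 2.08 and 2.46 to 3.37. Neither gene's genotypes overlapped.

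The regions found in all 10 hearts with the highest ranks belonged to F11r, Ppil1, Plin3, Ccdc25, Mdfic and Lpar1, at mean percentiles of 93.8 to 89.1. F11r encodes a junctional adhesion molecule, and its region at chr1:171463554-171464094 had folds of 7.80 to 17.5. Plin3, a coat protein of lipid droplets, had its region at chr17:56278962-56279561 with folds of 4.41 to 29.0, and Lpar1, a receptor for lysophosphatidic acid, at chr4:58435255-58435643 with folds of 4.65 to 34.2. None of the 6 genes was called in FPKM (limma adjusted p of 0.149 for Plin3 to 0.852 for Mdfic).

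Slc27a1 held the highest fold of the whole class, a choice made after the values were seen. It encodes a transporter that brings long-chain fatty acids into muscle cells, and its region spans chr8:71586105-71586708 on the plus strand, near the end of the gene. The highest fold there was 8.54, 18.5, 20.8, 33.8 and 34.4 in db/+ hearts 1 to 5 and 83.4, 47.2, 73.0, 112 and 3.58 in db/db hearts 1 to 5. Among the 3′ UTR-only peaks of its own heart it ranked first in db/+ 4 and in db/db 1 to 4, at 16 to 22 in db/+ 2, 3 and 5, at 496 in db/+ 1 and at 691 in db/db 5. The folds are values of lists called separately and were not tested between genotypes. FPKM of Slc27a1 was 18.4 to 25.9 in db/db and 18.8 to 22.2 in db/+ hearts, which overlapped (log2 difference 0.14 ± 0.09, limma adjusted p = 0.457).

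Most genes with regions had 1. Of the 5209 genes, 3720 (71.4%) had 1 region, 1021 (19.6%) had 2 and 318 (6.10%) had 3. Klhl33 and Trim56 had 9 each, Chpt1 8, Btnl9, Nt5dc3 and Zbtb20 7, and Nfib and Nus1 6. Trim56 is a ubiquitin ligase of antiviral signalling, and its regions lay within 5.90 kb, with 1 to 4 of them listed in a db/+ heart and 1 to 5 in a db/db heart. Chpt1, which makes phosphatidylcholine, had 3 regions listed in each of db/+ 1 to 4, 7 in db/+ 5 and 1 or 2 in each db/db heart. Klhl33, a kelch-like protein, had 6, 1, 2, 3 and 4 of its regions listed in db/+ hearts 1 to 5 and 0, 1, 0, 1 and 0 in db/db hearts. Its FPKM was 5.96, 6.54, 4.07, 5.45 and 3.01 in db/+ and 1.88, 2.11, 2.13, 2.21 and 2.16 in db/db hearts. Klhl33 therefore had both fewer listed regions and lower FPKM in db/db (log2 difference −0.92 ± 0.15, limma adjusted p = 0.00943). Btnl9, a butyrophilin-like protein, rose from 9.93 ± 1.66 to 16.6 ± 3.06 FPKM (limma adjusted p = 0.0212), with 1 to 4 regions listed in a db/+ heart and 2 to 5 in a db/db heart.

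Over all genes, those with a 3′ UTR-only region were more highly expressed and were called at about the background rate. Of the 5209 genes, 5111 were in the expression table and 4877 were tested, with a median of 5.99 FPKM against 3.89 for tested genes without such a region. A gene without a region can still have 3′ UTR-only peaks, in regions shared with another class, and 6192 genes had a peak. The same holds for the gene lists below. Of the 4877, 77 rose and 97 fell in db/db (3.57% called, against 3.01% of all 10344 tested genes, limma on log2(FPKM + 1)), among them 3 rises below 1 FPKM in the db/+ mean and 2 falls below it in the db/db mean, and 366 had no overlap between genotypes (7.50%, against 6.41%). The median log2 difference was −0.02, beside −0.03 for all tested genes. Among genes without a region 56 rose and 81 fell (2.51%). Genes whose best-shared region was in 1 heart were called in 2.28% of cases, in 2 to 4 hearts in 3.10%, in 5 to 9 in 5.12% and in all 10 in 5.37%, and the median FPKM rose alongside from 4.12 to 17.9. The balance of rises and falls depended on scaling: 44.3% of the called genes with a region rose as deposited, 62.0% with library medians set equal (88 up, 54 down) and 58.9% after quantile normalization (93 up, 65 down).

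**Figure D5:**
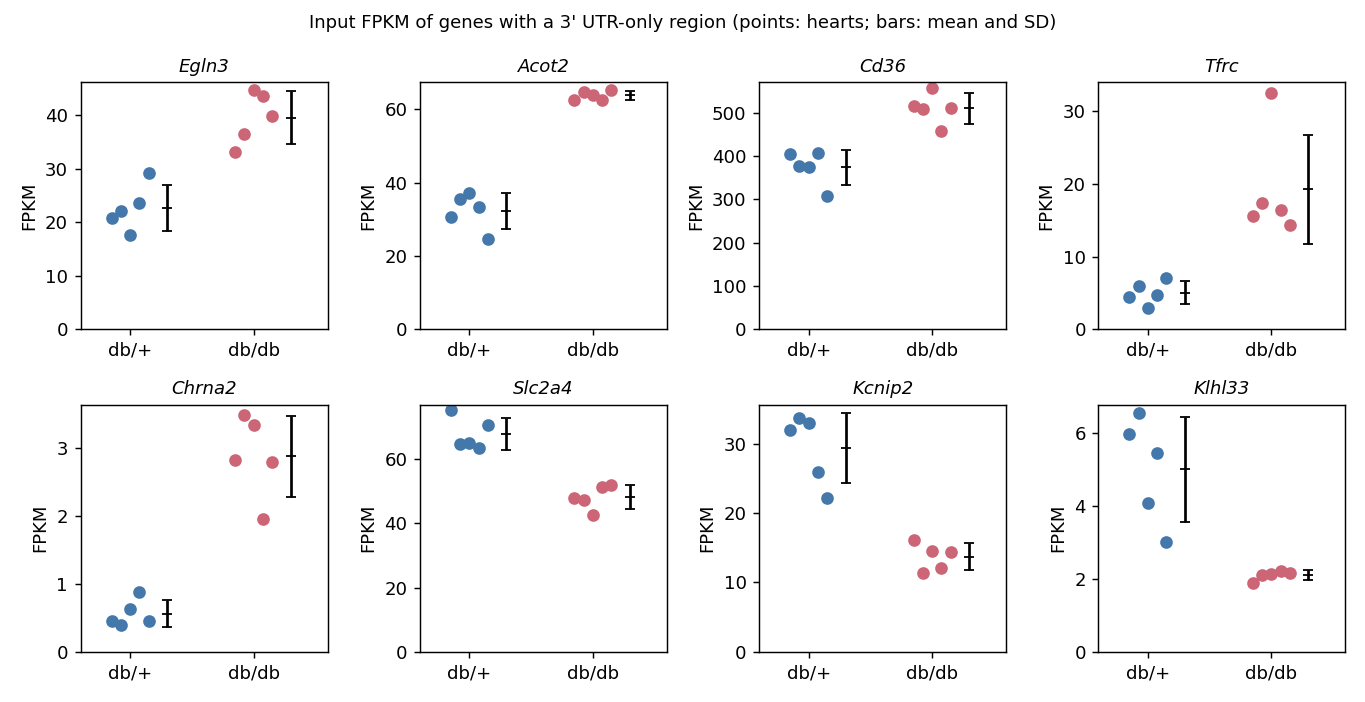
Input FPKM of 8 genes with a 3′ UTR-only region in each heart, with points for hearts and bars for the mean and SD of 5. In each of the 8 genes the db/db and db/+ hearts do not overlap; the first 5 are higher in db/db and the last 3 lower.

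The rises named here were chosen from called genes whose genotypes did not overlap, so the lack of overlap is no separate result. Acot2, a mitochondrial acyl-CoA thioesterase, had 62.6, 64.8, 63.8, 62.4 and 65.3 FPKM in db/db and 30.7, 35.4, 37.2, 33.3 and 24.7 in db/+ hearts (log2 difference 0.97 ± 0.09, limma adjusted p = 0.000485). Its region at chr12:83993665-83993873 was found in all 10 hearts, with folds of 2.50 to 4.65 in db/+ and 1.83 to 3.60 in db/db hearts. Acsm5, a mitochondrial acyl-CoA synthetase, rose from 1.98 ± 0.186 to 4.59 ± 0.62 FPKM, and Egln3, an oxygen-sensing prolyl hydroxylase, from 22.7 ± 4.29 to 39.6 ± 4.90 (limma adjusted p = 0.00039 and 0.00814). The potassium channel gene Kcnk1 and the endothelin gene Edn3 had means of 0.068 and 0.685 FPKM in db/+ and 2.07 and 2.99 in db/db hearts, and each of their regions had a peak in 1 db/db heart. Kcnk1 was listed at 0 in 2 of the db/+ hearts. Both genes passed the minimum of a mean of 1 FPKM only through the db/db hearts, and with no minimum their limma adjusted p was 0.00339 and 0.00295.

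The falls named here were likewise the largest among called genes whose genotypes did not overlap, so that trait was set by the choice. Kcnip2, the accessory subunit of the transient outward potassium current, had 32.0, 33.8, 33.1, 26.0 and 22.2 FPKM in db/+ and 16.2, 11.4, 14.6, 12.003 and 14.5 in db/db hearts (log2 difference −1.04 ± 0.13, limma adjusted p = 0.0028). Its region at chr19:45792346-45792496 on the minus strand was listed in 3 db/+ hearts and no db/db heart, with folds of 1.77 to 1.94. Slc25a33, a mitochondrial pyrimidine nucleotide carrier, fell from 14.97 ± 1.81 to 7.42 ± 1.39 FPKM, and its region too was listed in 3 db/+ hearts and no db/db heart. Scgb1c1, a secretoglobin, fell from 17.5 ± 3.01 to 2.74 ± 1.09 FPKM, and Chac1, which breaks down glutathione, from 3.31 ± 0.798 to 1.31 ± 0.34. Mylk4, a myosin light chain kinase with a region in all 10 hearts, fell from 22.8 ± 4.74 to 12.1 ± 3.12 FPKM, and Aqp1, the water channel of endothelium and red cells, from 136 ± 7.05 to 78.7 ± 24.4 (limma adjusted p = 0.0231 and 0.0357, lost in 4 and 9 of 16 alternative fits). Cyp2e1, a cytochrome P450 enzyme, fell from 9.28 ± 6.69 to 1.16 ± 0.694 FPKM (limma adjusted p = 0.0274), a call lost in 7 of 16.

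Markers of fat tissue varied widely beside these values. The 6 adipocyte markers summed to 15.9 to 175 FPKM in db/+ and 5.96 to 50.9 in db/db hearts, and 1 of the 6, Cfd, fell (limma adjusted p = 0.0411, 1.72% of all tested genes fell), with Lep listed at 0 in some db/+ hearts. That call was lost with a replicate block and on leaving out any 1 of db/+ 3, 4 and 5 and db/db 1, 2, 3 and 5. With a pseudocount of 0.1, 1 of the 6 rose besides. Of 3 brown adipocyte markers, the 2 with FPKM values, Ucp1 and Cidea, summed to 34.7 to 174.9 FPKM in db/+ and 49.4 to 73.2 in db/db hearts, and neither was called. The 5 red blood cell markers summed to 197 to 1464 FPKM in db/+ and 205 to 3939 in db/db hearts with none called, and the 4 endothelial markers to 80.7 to 102 and 83.7 to 105, also with none called. The part of these cells in the values of Cyp2e1, Tfrc and Aqp1 was not tested, and in whole hearts fewer cells of a type and less RNA per cell cannot be told apart. The 7 cardiomyocyte markers summed to 7617 to 8611 FPKM in db/db and 8381 to 10554.8 in db/+ hearts, and 1 of the 7, Myl2, fell (limma adjusted p = 0.0466), a call lost with equal library medians, with a replicate block and on leaving out any 1 of db/+ 1, 3 and 4 and the 5 db/db hearts.

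Of 23 genes of fatty acid uptake and oxidation 14 had a 3′ UTR-only region, and 10 had one in all 10 hearts. In FPKM 11 of the 23 rose and none fell (1.29% of all tested genes rose), 6 of them with a region, and the median log2 difference of the list was 0.30 beside −0.03 for all tested genes. The list was written with earlier results of these data known. Between 7 and 11 of the 23 rose when a heart was left out, and 6 with a replicate block.

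Within that list, Cd36, the fatty acid translocase of the cell surface, rose from 374 ± 40.2 to 511 ± 35.4 FPKM (limma adjusted p = 0.0165), with 307 to 406 in db/+ and 458 to 558 in db/db hearts. Its region at chr5:17782255-17782763 on the minus strand was found in all 10 hearts, with a median fold of 1.93. Acaa2, a thiolase of mitochondrial beta-oxidation, rose from 511 ± 41.2 to 679 ± 41.4 FPKM (limma adjusted p = 0.00961) with a region at chr18:74805999-74806207 in all 10 hearts. Acadm and Hadhb, which act in the same pathway, also had a region in all 10 hearts but did not pass the expression test (limma adjusted p = 0.136 and 0.364). The other rises with a region were Acot2, Decr1, Slc25a20 and Fabp3, whose regions were found in 10, 5, 2 and 1 hearts, and these were named after their values were seen. Over the 10 genes with a region in all hearts, the mean percentile of fold had a median of 20.5 and ran from 5.32 for Acsl1 to 88.5 for Slc27a1, so most of these shared peaks were of low rank on abundant transcripts.

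Of 18 insulin signalling genes 17 had a 3′ UTR-only region, beside 4877 of all 10344 tested genes. Regions in all 10 hearts were found in Slc2a4, Gsk3a and Insr. Slc2a4, the insulin-responsive glucose transporter, fell from 67.9 ± 5.03 to 48.3 ± 3.69 FPKM (log2 difference −0.48 ± 0.07, limma adjusted p = 0.0059), with 63.5 to 75.4 in db/+ and 42.8 to 51.9 in db/db hearts. Its region at chr11:69942543-69942751 on the minus strand had folds of 2.73, 2.88, 3.35, 4.36 and 4.46 in db/+ hearts 1 to 5 and 3.68, 3.58, 3.34, 2.89 and 3.34 in db/db hearts. The db/db folds lay within the wider db/+ range. The kinase gene Akt1 fell from 33.1 ± 4.44 to 24.97 ± 1.19 FPKM and the adaptor Irs1 from 3.20 ± 0.628 to 1.54 ± 0.177 (limma adjusted p = 0.035 and 0.00518), with regions in 5 and 2 hearts. In all 3 of 18 fell (1.72% of all tested genes fell) and none rose, with a median log2 difference of −0.02. Insr, the insulin receptor, had 4 regions and no call (adjusted p = 0.63), nor had Gsk3a (0.95) or Pik3r1 (0.09), whose best region was found in 5 db/db and 2 db/+ hearts.

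In the contractile apparatus 7 of 18 genes had a region, and Mybpc3, Csrp3, Ldb3, Ttn and Nebl had one in all 10 hearts. Of the 18, 4 fell (1.72% of all tested genes fell) and none rose, with 2 of the 4 holding a region: Mybpc3, myosin-binding protein C, from 545 ± 30.02 to 433 ± 30.2 FPKM, and Myl3, a myosin light chain, from 1304 ± 82.1 to 1016 ± 79.8 (limma adjusted p = 0.0186 and 0.0176). With library medians set equal or with a replicate block 2 of the 18 fell, 1 of them with a region, and without db/db 3 only 1 of the 18 fell, with no region. Among calcium handling and channel genes 15 of 20 had a region and 3 of 19 tested fell (1.72% of all tested genes fell), Kcnip2, Abcc9 and Hcn2, the last without a region. Leaving out any 1 heart left 1 or 2 falls, equal library medians 2 and a replicate block 1. Casq2, the calcium buffer of the sarcoplasmic reticulum, Kcnj11 and Kcnj2 had regions in all 10 hearts and Pln in 9, with folds of 1.37 to 2.01 in Casq2, whose mean of 230 FPKM was not called (limma adjusted p = 0.467). Cardiac transcription factors had regions in 13 of 16 genes, among them Gata6, Mef2d, Gata4 and Tbx5 in 9 hearts each, and none was called.

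Genes of the m6A pathway itself had such regions in part and no call in FPKM. Among 9 writers, regions were found in Wtap, the targeting subunit of the complex, in 9 hearts, and in Mettl14, Zc3h13 and Mettl16 in 2 or 3 hearts. Of the erasers Alkbh5 had a region in 1 heart and Fto none, and of 12 readers Ythdf3, Hnrnpc and Prrc2a had regions in 4, 2 and 1 hearts. Summed FPKM of the writers was 25.9 to 29.3 in db/db and 27.8 to 30.8 in db/+ hearts. Proteins that bind 3′ UTRs had regions in 13 of 21 genes, with Pcbp2 in all 10 hearts, Pcbp1 and Celf1 in 8 and Mbnl2 in 5. Of 18 deadenylation genes 7 had regions, Tob1, Tob2, Cnot11 and Pan3 in 8 hearts each. The same held for 8 of 20 cleavage and polyadenylation genes, led by Fip1l1 in 4 hearts, and for 4 of 12 genes of the microRNA machinery, led by Tnrc6c in 9. None of these lists had a called gene.

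Among the nuclear regulators of fuel use, 9 of 13 genes had a region, with Rxra in all 10 hearts, Ncoa1 in 8 and Ppard in 6, and none was called. In the circadian clock, 9 of 16 genes had one. Nr1d2, a repressor of the clock, had a region at chr14:18204054-18204353 on the minus strand in all 10 hearts, with folds of 7.11, 11.8, 6.17, 12.5 and 59.8 in db/+ and 4.75, 6.41, 12.7, 6.99 and 2.70 in db/db hearts. Its FPKM was 20.9 to 25.3 in db/+ and 12.5 to 21.8 in db/db hearts, which overlapped (log2 difference −0.54 ± 0.14, limma adjusted p = 0.0561). Tef, another clock output factor, had a region in all 10 hearts as well (limma adjusted p = 0.269).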

How the data were processed

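Peak lists deposited by the authors give, per the file headers, each peak's position, exon blocks, gene, transcript part, fold enrichment (a ratio made by the authors) and p-value, called per animal and per transcript; the sources used here do not name the caller. The fold and p-value were used only to rank, filter or describe peaks within a list. FPKM of the 10 input libraries was deposited by the authors; it carries no counts, so depth is unknown. The submitters' processing notes name FastQC 0.11.7, Trimmomatic 0.32, HISAT2 2.1.0 and mm9, but 89.9% of the 11496 genes that could be paired with RefSeq's GRCm38 table began or ended within 50 bp of it, so positions, counted from 1, are read as GRCm38.

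Of 54560 lines in the class 2875 (5.27%) repeated a position and were dropped; 46 positions also listed with another class were kept. Regions joined peaks overlapping by at least 1 bp on 1 strand, so the peaks of a region need not all overlap each other. Heart values were compared by exact permutation of genotypes or exact sign permutation, adjusted by Benjamini-Hochberg over 10 tests. Expression used limma 3.58.1 in R 4.3.3 (trend) on log2(FPKM + 1), a scale that understates changes of low genes, for the 10344 genes averaging 1 FPKM or more, called at adjusted p under 0.05; scripts were tested on simulated data. Replicate numbers did not pair the animals, and they were not blocked.

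The members and the gene lists were chosen with earlier results of these data known. Genes named were up to 8 regions with more and 8 with fewer db/db hearts by difference and fold, the 8 genes with most regions, 6 top-ranked regions of all 10 hearts, the 8 largest non-overlapping rises and falls, and up to 4 best-shared members of each list; called list members beyond these, genes called beside genotype-following regions, and Slc27a1 were added after values were seen. A few items that these rules choose are not reported here.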

Additional observations from a re-analysis of the deposited data

Results flagged for a closer look

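Among 86 groups of 5 values checked for a heart far from the other 4, 6 had one (6.98%), and chance gives about 1 in 20. In db/+ the fifth heart had 9443 3′ UTR-only peaks against 4387 to 5308 in the others, 4456 genes against 2362 to 2765, and 2.12 peaks per gene against 1.86 to 1.92. In db/db the fifth heart had 1.82 peaks per gene against 1.89 to 1.91. Tfrc stood at 32.5 FPKM in the third db/db heart against 14.3 to 17.4 in the other 4. Ahsg stood at 15.8 FPKM in the fifth db/+ heart against 8.72 to 10.2 in the others.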

How the results depend on the processing

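Lengths against the other classes kept their direction and call under every alternative run. Without db/+ 5 and db/db 5 the difference in peaks turned to 189.75, in genes to 98.25 and in peaks per gene to 0.0029; the percentile of fold was then −3.20 and the Jaccard difference 0.0142, both past the threshold. Merging brought the share to −4.92 points and the 8000 best peaks the Jaccard difference to 0.0168. Leaving out each heart in turn gave −1556.4 to −292.4 peaks, −5.68 to −2.24 points of share (exact p = 0.0159 to 0.175, under 0.05 without db/+ 2 or db/+ 4), −668.75 to −145.25 genes, −0.0768 to −0.0113 peaks per gene, lengths of −4.55 to 3.90 bases, percentiles of −2.76 to −0.127 (exact p = 0.0234 to 0.988, under 0.05 without db/+ 5), and a Jaccard difference of 0.00328 to 0.0136. Regions with more hearts in db/db numbered 1 to 76 and those with fewer 26 to 218 when a heart was left out, 63 and 32 without db/+ 5 and db/db 5, 20 and 59 with the 8000 best peaks, and 1 and 5 for 5 hearts against 0. When hearts were left out, the rule of at least 4 and at most 1 was kept. A genotype with 4 hearts left then needed all 4 in 1 direction and at most 1 of 4 in the other. Those counts therefore also reflect the changed strictness of the rule. Called genes with a region numbered 30 to 83 up and 29 to 93 down when a heart was left out, 54 down with equal medians, and 40 up and 51 down for regions in at least 5 hearts. The replicate numbers did not pair the hearts (same-number correlations of −0.105 to 0.0283). A replicate block left 18 up and 19 down. In the heart-level genotype comparisons a block of 5 pairs cannot give an exact p under 0.05, so it could change no call there. Of the named genes without a call, the log2 difference changed sign when hearts were left out: it ran from −0.076 to 0.039 in Apopt1, −0.073 to 0.19 in Mbnl2, −0.20 to 0.044 in Clec4a3, −0.087 to 0.00322 in F11r and −0.023 to 0.0998 in Mdfic, and without db/+ 5 and db/db 5 it was 0.024 in Apopt1, −0.037 in Mbnl2 and −0.071 in Mdfic. The causes were not tested. Depth is unknown for every library.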
